A study of Rattus norvegicus with 6 samples.

Results

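The genes described here were 43 rat genes known as markers of cell proliferation: 8 that act in G1, 14 in S phase and 21 in G2 and mitosis. They were listed by name, with earlier results of these data known, and a probe was taken as theirs where the RefSeq accession given for it belonged to the gene. On these Agilent arrays 84 probes matched 40 of the 43 genes, among 15645 genes that could be named in all. Liver total RNA of 6 male Sprague-Dawley (Crl:CD(SD)) rats was labelled with Cy3 and hybridised to 1 array per animal. The 3 TBBC rats received TBBC, a thiobis compound of 6-tert-Butyl-m-Cresol units joined by sulfur, used as an antioxidant in rubber and plastics, at 300 mg/kg/day, and the 3 vehicle rats received corn oil. All were bought at an age of 5 weeks. How long they were dosed is given as 28 days in the design text but as 9 weeks in the treatment protocol. The question was whether genes of hepatocyte division moved beside the genes induced through CAR, the constitutive androstane receptor.

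Most hepatocytes of an adult liver rest outside the cell cycle. In a dividing cell, D-type cyclins with Cdk4 and E-type cyclins with Cdk2 inactivate the retinoblastoma protein, which frees E2F factors to switch on the genes of DNA synthesis. Genes of G2 and mitosis follow later, driven by Foxm1 and by the B-Myb and MuvB complex, and are held down in resting cells by the DREAM complex. CAR is a nuclear receptor of hepatocytes that induces drug-metabolising enzymes such as those of the Cyp2b family, and in rodents many of its activators also drive hepatocytes into a transient wave of division.

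Levels are given as log2 of the processed spot intensity minus the 75th percentile of the array, so that 0 is the 75th percentile, and differences are TBBC minus vehicle on that scale with the standard error of the limma fit. Of 29326 features tested, 902 (3.08%) passed a Benjamini-Hochberg adjusted p of 0.05, with 1.68% of all features higher and 1.40% lower. Between 36919 and 39386 of 61537 probes per array were well above background. All 3 TBBC arrays lay on 1 slide and all 3 vehicle arrays on another, each slide scanned on its own, so slide and treatment cannot be told apart. Each array came from its own animal, so the p-values rest on animal-to-animal spread within a group. In RNA of a whole tissue, fewer cells of a type and less RNA per cell cannot be told apart.

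No cell cycle gene passed the test in either direction. Of the 43, 33 had a probe that cleared background on every array of TBBC, of vehicle or of both, and were tested. Of these, 0 rose and 0 fell, beside 1.68% and 1.40% of all features (limma, lowest adjusted p = 0.111, for Cdk2). A count of 0 among 33 lies near these shares. At an unadjusted p of 0.05, 5 of the 33 (15.2%) would have passed, against 23.0% of all features. The TBBC and vehicle arrays did not overlap for 1 tested gene that was higher in TBBC (Kif11), beside 12.3% of all features. They did not overlap for 4 that were lower in TBBC (Ccne2, Cdk2, Mcm7 and Foxm1), beside 18.8% of all features. Of these, Ccne2 was retained through vehicle alone, the group in which it was higher. The estimate was below 0 for 23 genes and above 0 for 10 (30.3%, where 42.4% of all features were above 0). The 10 include Mcm6, which was retained through TBBC alone, the group in which it was higher. The median was -0.18, against -0.06 over all features. With spike-in controls as the scale, the median of all features stood at 0.16 and 10 of these 33 signs turned.

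The intervals show what size of change the arrays could have missed. The 95% interval of the difference lay within 2-fold in both directions for 24 of the 33 genes. Its upper end lay below a 2-fold rise for 29 of the 33, and the other 4 were Rrm2, Tk1, Cdk1 and Kif11. For 28 of the 33 the difference between groups was smaller than the range of the 3 vehicle animals. The same share was not taken over all features, so this count cannot be read as particular to these genes.

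**Figure D1:**
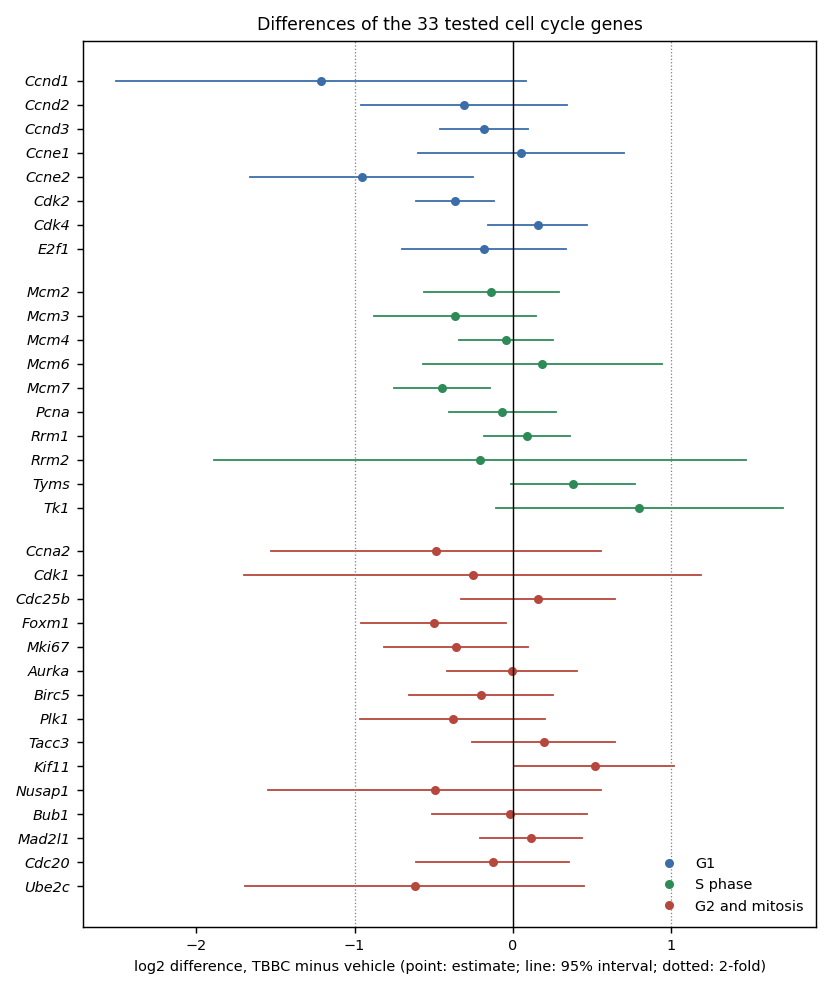
Log2 difference, TBBC minus vehicle, of the 33 tested cell cycle genes by phase. Points are limma estimates, lines are 95% intervals and dotted lines mark a 2-fold change; 24 of the 33 intervals lie between the dotted lines, and the widest are those of Rrm2 and Cdk1.

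Among the G1 genes, 0 of 8 passed the test, beside 3.08% of all features. Their median difference was -0.25, or -0.025 with spike-in scaling and -0.15 without TBBC replicate 2. Ccnd1 encodes cyclin D1, the cyclin that carries growth signals to Cdk4. Its log2 levels were 2.56, 0.62 and 1.82 in TBBC livers and 2.78, 3.59 and 2.26 in vehicle livers. Replicate 2 was the lowest TBBC animal and replicate 2 the highest vehicle animal, and the groups overlapped. The means were 1.67 ± 0.98 in TBBC and 2.88 ± 0.67 in vehicle (SD, n = 3 each), a difference of -1.21 ± 0.54 with an adjusted p of 0.242. This was the largest estimate of the 33 genes, and its interval ran from -2.50 to 0.09. Without TBBC replicate 2 it was -0.69. The 3 probes of Ccnd1 gave estimates between -1.27 and -0.94. On the reported scale the other D-type cyclins also had lower means in TBBC, without passing the test. Ccnd2 stood at -0.44, -1.43 and -0.66 in TBBC and at -0.78, -0.42 and -0.40 in vehicle, a difference of -0.31 ± 0.27 (adjusted p = 0.521). Ccnd3 stood at 0.19, 0.20 and 0.28 in TBBC and at 0.55, 0.27 and 0.40 in vehicle, a difference of -0.18 ± 0.12 (adjusted p = 0.375), and for Ccnd3 the sign turned with spike-in scaling. Cdk4, the kinase partner of the D-type cyclins, had a higher mean in TBBC, also without passing the test, and the groups overlapped. Its estimate ran from 0.05 to 0.38 in 17 other settings. Its values were 1.73, 1.87 and 1.78 in TBBC and 1.78, 1.43 and 1.71 in vehicle, a difference of 0.16 ± 0.13 (adjusted p = 0.496).

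Cdk2, the kinase that works with the E-type cyclins at the start of S phase, had the lowest adjusted p of the 33 genes. Its log2 levels were -0.21, -0.31 and -0.25 in TBBC livers and 0.10, 0.04 and 0.18 in vehicle livers. Every TBBC animal lay below every vehicle animal, with an SD of 0.05 in TBBC and 0.07 in vehicle (n = 3 each). The difference of -0.37 ± 0.10, a ratio of 0.775, had an adjusted p of 0.111 and did not pass the test. With spike-in scaling it was -0.15 (adjusted p = 0.720) and with normexp -0.22 (adjusted p = 0.164). The other retained probe of Cdk2 gave -0.48. Its promoter is shown because Cdk2 came nearest to the threshold; the 300 bases run from 250 before to 50 after the annotated start, at chr7:1721829-1722128 on the minus strand of GRCr8 (RefSeq), with E2F and CCAAT letters in capitals.
Cdk2: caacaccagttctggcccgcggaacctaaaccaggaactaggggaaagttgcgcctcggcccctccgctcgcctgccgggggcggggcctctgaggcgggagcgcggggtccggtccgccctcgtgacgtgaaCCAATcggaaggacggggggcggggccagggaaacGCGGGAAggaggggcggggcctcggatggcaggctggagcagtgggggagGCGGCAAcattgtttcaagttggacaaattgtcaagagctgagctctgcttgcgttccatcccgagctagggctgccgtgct
The capitals hold 2 matches to the E2F forms and 1 CCAAT box; the letters searched are given with the promoters of Cdk1 and Plk1.

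Ccne2, an E-type cyclin, stood near the detection limit. Its log2 levels were -4.77, -5.01 and -5.90 in TBBC livers and -4.12, -4.23 and -4.46 in vehicle livers. All TBBC values lay below all vehicle values, but the lowest TBBC value was under the lowest signal well above background on its array. On 2 of 3 TBBC arrays the probe was well above background. It was retained through vehicle alone, where it was higher, so the gap is given only as a description. The difference was -0.95 ± 0.29 (adjusted p = 0.131), with -0.38 under normexp and -0.62 without TBBC replicate 3. Ccne1, the other E-type cyclin, stood at -2.69, -1.76 and -1.92 in TBBC and at -1.90, -2.17 and -2.45 in vehicle, a difference of 0.05 ± 0.27 (adjusted p = 0.925). E2f1, a factor that switches on genes of DNA synthesis, stood at -1.72, -2.23 and -1.90 in TBBC and at -1.75, -1.43 and -2.12 in vehicle, a difference of -0.18 ± 0.22 (adjusted p = 0.637). The 4 retained probes of E2f1 did not agree in sign and ran from -0.33 to 1.51. The probe at 1.51 was well above background on 3 TBBC arrays and on 0 vehicle arrays. It was retained through TBBC alone, so its estimate is given only as a description.

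**Figure D2:**
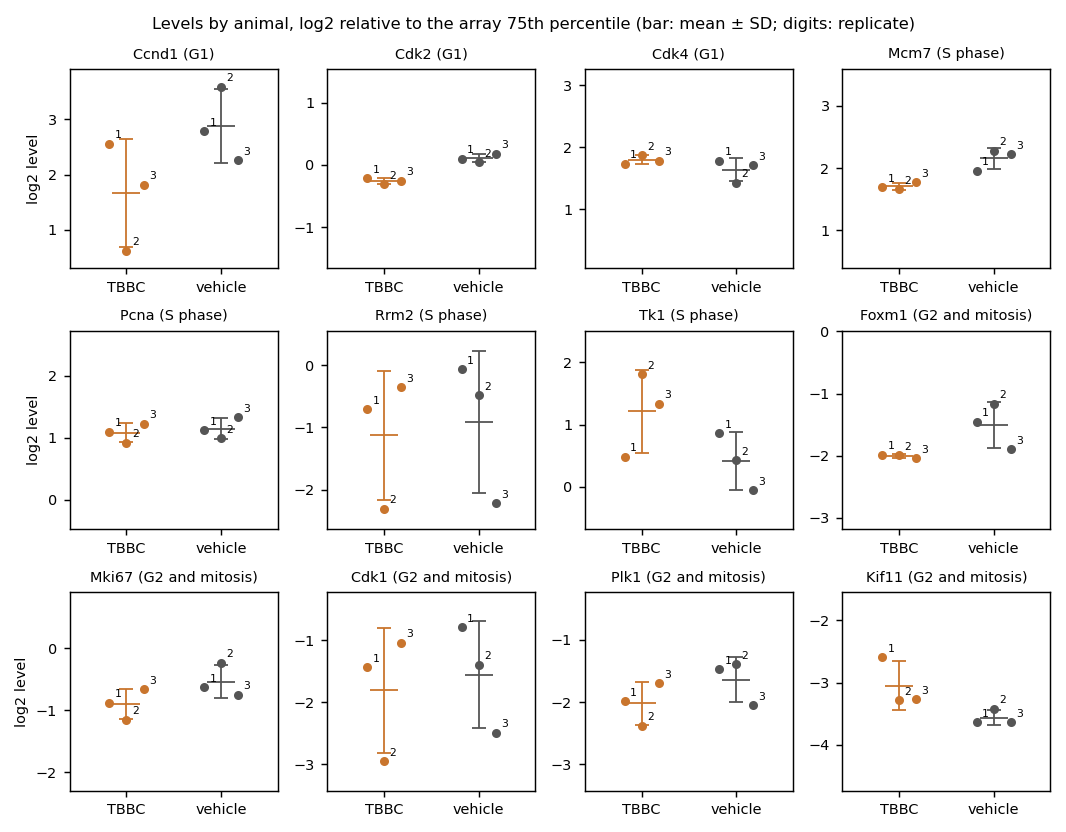
Log2 level relative to the array 75th percentile of 12 cell cycle genes in each animal, TBBC left and vehicle right. Points are animals with the replicate number, and bars are the mean ± SD of 3; the groups are apart for Cdk2, Mcm7, Foxm1 and Kif11, none of which passed the test, and overlap for the other 8.

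The S phase genes showed 0 of 10 tested members past the threshold, beside 3.08% of all features, and a median difference of -0.05. This median was 0.17 with spike-in scaling and 0.04 with median centring. The helicase that opens the origins of replication is built from Mcm2 to Mcm7. Mcm7 stood at 1.70, 1.66 and 1.77 in TBBC livers and at 1.95, 2.28 and 2.23 in vehicle livers, with no overlap between the groups. The difference was -0.45 ± 0.13 with an adjusted p of 0.113, and -0.23 with spike-in scaling. The other probe of Mcm7 showed no such gap, with -1.31, -1.23 and -0.996 in TBBC, against -1.34, -1.26 and -1.002 in vehicle, a difference of 0.02. Mcm3 stood at -0.88, -1.50 and -0.80 in TBBC and at -0.85, -0.50 and -0.73 in vehicle, a difference of -0.36 ± 0.21 (adjusted p = 0.345). The remaining subunits tested were closer to 0. Mcm2 differed by -0.14 ± 0.18, Mcm4 by -0.04 ± 0.12 and Mcm6 by 0.19 ± 0.31, with adjusted p from 0.665 to 0.859. Mcm6 was well above background on 3 TBBC arrays and on 2 vehicle arrays. It was retained through TBBC alone, where it was higher, so its estimate is given only as a description. With only probes well above background on all 6 arrays, the S phase median was -0.07.

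Genes of nucleotide supply lay on either side of 0, some with wide spread between animals. Tk1, thymidine kinase of the cytosol and a usual marker of S phase, had the largest estimate above 0. Its log2 levels were 0.49, 1.81 and 1.34 in TBBC livers and 0.87, 0.43 and -0.06 in vehicle livers. TBBC replicate 1 lay within the vehicle range and the other two TBBC animals lay above it. The means were 1.21 ± 0.67 in TBBC and 0.41 ± 0.46 in vehicle (SD, n = 3 each), a difference of 0.80 ± 0.38 with an adjusted p of 0.262. It was 0.50 without TBBC replicate 2. The other probe of Tk1 gave 0.99. Tyms, thymidylate synthase, stood at -0.98, -0.90 and -1.19 in TBBC and at -1.12, -1.50 and -1.59 in vehicle, a difference of 0.38 ± 0.16 (adjusted p = 0.230). Rrm2, the subunit of ribonucleotide reductase whose level follows the cell cycle, varied most of the 33 genes within groups. It stood at -0.71, -2.31 and -0.36 in TBBC and at -0.06, -0.48 and -2.22 in vehicle. One animal in each group lay well below the others, TBBC replicate 2 and vehicle replicate 3. The difference was -0.21 ± 0.70, with an interval from -1.89 to 1.47 (adjusted p = 0.879).

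The other genes of the replication fork were nearly level. Pcna, the sliding clamp of DNA polymerase, stood at 1.097, 0.92 and 1.22 in TBBC livers and at 1.12, 0.99 and 1.33 in vehicle livers. These ranges overlapped almost whole, with a difference of -0.07 ± 0.14, an interval from -0.40 to 0.27 and an adjusted p of 0.801. Rrm1, the other subunit of ribonucleotide reductase, differed by 0.09 ± 0.11 (adjusted p = 0.659). The promoter of Mcm7 is shown as the S phase gene with the lowest adjusted p, at chr12:22163129-22163428 on the minus strand of GRCr8 (RefSeq), with E2F and CCAAT letters in capitals.
Mcm7: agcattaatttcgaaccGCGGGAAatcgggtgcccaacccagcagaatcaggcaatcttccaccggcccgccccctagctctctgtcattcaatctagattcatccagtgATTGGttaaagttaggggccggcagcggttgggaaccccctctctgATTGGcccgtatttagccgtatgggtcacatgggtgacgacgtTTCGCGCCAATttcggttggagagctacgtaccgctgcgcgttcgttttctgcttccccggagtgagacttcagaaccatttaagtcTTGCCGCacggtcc
It holds 4 matches to the E2F forms and 3 CCAAT boxes, and within its longest run of capitals a pair of E2F matches and a CCAAT box overlap each other.

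Among the genes of G2 and mitosis, 0 of 15 tested members passed, beside 3.08% of all features, and the median difference was -0.20. This median was 0.02 with spike-in scaling. Foxm1, the factor that drives many genes of G2 and mitosis, stood at -1.98, -1.99 and -2.04 in TBBC livers and at -1.45, -1.16 and -1.89 in vehicle livers. All TBBC values lay below all vehicle values, with vehicle replicate 3 closest to them. The difference was -0.50 ± 0.19 with an adjusted p of 0.191, and -0.28 with spike-in scaling, -0.31 with normexp and -0.33 without vehicle replicate 2. Mki67, which encodes the Ki-67 antigen of cycling cells, stood at -0.88, -1.15 and -0.66 in TBBC and at -0.63, -0.24 and -0.75 in vehicle. The groups overlapped, and the difference was -0.36 ± 0.19 (interval -0.81 to 0.10, adjusted p = 0.305). It was -0.14 with spike-in scaling, -0.23 without TBBC replicate 2 and -0.21 without vehicle replicate 2. All 5 retained probes of Mki67 were on the lower side, from -1.31 to -0.30, and their mean, the probe at -1.31 included, gave -0.60. On a dimmer probe, well above background on all 6 arrays, the groups were apart. It stood at -3.80, -3.77 and -3.23 in TBBC and at -2.95, -2.88 and -3.12 in vehicle, a difference of -0.62 ± 0.18 (limma on every probe, adjusted p = 0.118). On the other retained probes the groups overlapped. The probe at -1.31 was well above background on 2 TBBC arrays and on 3 vehicle arrays. It was retained through vehicle alone, so its estimate is given only as a description. Kif11, a spindle motor, was the gene on the higher side with no overlap. It stood at -2.59, -3.29 and -3.27 in TBBC and at -3.64, -3.42 and -3.64 in vehicle. The difference was 0.52 ± 0.21 with an adjusted p of 0.207. It was 0.29 without TBBC replicate 1, 0.036 with normexp background correction and 0.90 with the mean of the retained probes. The other retained probe of Kif11, at 1.28, was well above background on 3 TBBC arrays and on 0 vehicle arrays. It was retained through TBBC alone, so its estimate, which enters that mean, is given only as a description. A further probe, with a difference of -0.24, was well above background on none of the 6 and was not retained.

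Cdk1, the kinase that starts mitosis, varied widely between animals of both groups. It stood at -1.44, -2.95 and -1.04 in TBBC livers and at -0.79, -1.40 and -2.49 in vehicle livers. The difference was -0.25 ± 0.60, with an interval from -1.70 to 1.19 (adjusted p = 0.826). TBBC replicate 2 and vehicle replicate 3 were the lowest animals, as for Rrm2. Plk1, a kinase of mitotic entry and exit, stood at -1.99, -2.38 and -1.69 in TBBC and at -1.48, -1.39 and -2.05 in vehicle, a difference of -0.38 ± 0.24 (adjusted p = 0.383). Ccna2, the cyclin A that partners Cdk2 and Cdk1, stood at -3.32, -4.19 and -3.06 in TBBC and at -2.70, -2.52 and -3.89 in vehicle, a difference of -0.48 ± 0.44 (adjusted p = 0.530). Ube2c, a ubiquitin-conjugating enzyme of the anaphase-promoting complex, stood at -4.03, -4.77 and -3.42 in TBBC and at -3.12, -2.97 and -4.25 in vehicle, a difference of -0.62 ± 0.45 (adjusted p = 0.435). The same 2 animals were lowest in each of these genes. Nusap1, which bundles spindle microtubules, differed by -0.49 ± 0.44 (adjusted p = 0.525).

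The remaining genes tested act in the spindle checkpoint, at the spindle or on Cdk1. Bub1, a checkpoint kinase, differed by -0.02 ± 0.20, Mad2l1, the checkpoint protein Mad2, by 0.11 ± 0.14, and Cdc20, the activator that both restrain, by -0.13 ± 0.20. Aurka, a kinase of the spindle poles, differed by -0.01 ± 0.17, and Birc5, the survivin subunit of the passenger complex, by -0.20 ± 0.19. Cdc25b, the phosphatase that activates Cdk1, differed by 0.16 ± 0.20, and Tacc3, a microtubule protein that Aurora A recruits, by 0.20 ± 0.19. The adjusted p of these 7 genes ran from 0.545 to 0.987.

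Of the 43 genes, 7 had probes that did not reach the background limit on all arrays of any group, and they were not tested. They were Cdc6, Cdt1 and Gins2, which load or activate the replicative helicase, and Ccnb1, Ccnb2, Aurkb and Tpx2, which act in mitosis. Ccnb1, cyclin B1, stood at -5.08, -5.86 and -4.00 in TBBC livers and at -3.98, -3.68 and -5.29 in vehicle livers. It was well above background on 1 TBBC array and on 2 vehicle arrays, and the groups overlapped. Ccnb2 stood at -4.24, -5.77 and -4.70 in TBBC and at -3.96, -4.32 and -5.89 in vehicle, with 2 of 3 arrays well above background in each group. The lowest signal well above background lay between -5.36 and -4.86 on the 6 arrays, so that some of these levels were above that limit and others below it. Cdt1, Gins2 and Aurkb were well above background on 0 of the 6 arrays. No probe was matched here to Mcm5, Top2a and Bub1b.

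Across the genes of G2 and mitosis, animals of the same group differed together. TBBC replicate 2 was the lowest TBBC animal in 11 of the 15 tested genes, the exceptions being Foxm1, Birc5, Tacc3 and Bub1. Vehicle replicate 3 was the lowest vehicle animal in 14 of the 15, Tacc3 being the exception. Over all features TBBC replicate 2 was the lowest TBBC animal in 28.5% and vehicle replicate 3 the lowest vehicle animal in 40.9%. The mean level of the 15 genes was -1.78, -2.12 and -1.53 in TBBC livers and -1.47, -1.43 and -2.04 in vehicle livers, so that TBBC replicate 2 lay below all 3 vehicle animals and vehicle replicate 3 below 2 of the 3 TBBC animals. With spike-in scaling both counts were 10 of 15, where the shares over all features were 22.5% for TBBC replicate 2 and 10.1% for vehicle replicate 3. Quantile normalization and median centring left the counts at 11 and 14. The pattern was noticed in these data and is a description without a test. In S phase genes TBBC replicate 2 was lowest in 7 of 10 and vehicle replicate 3 in 3 of 10, and in G1 genes each was lowest in 4 of 8.

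**Figure D3:**
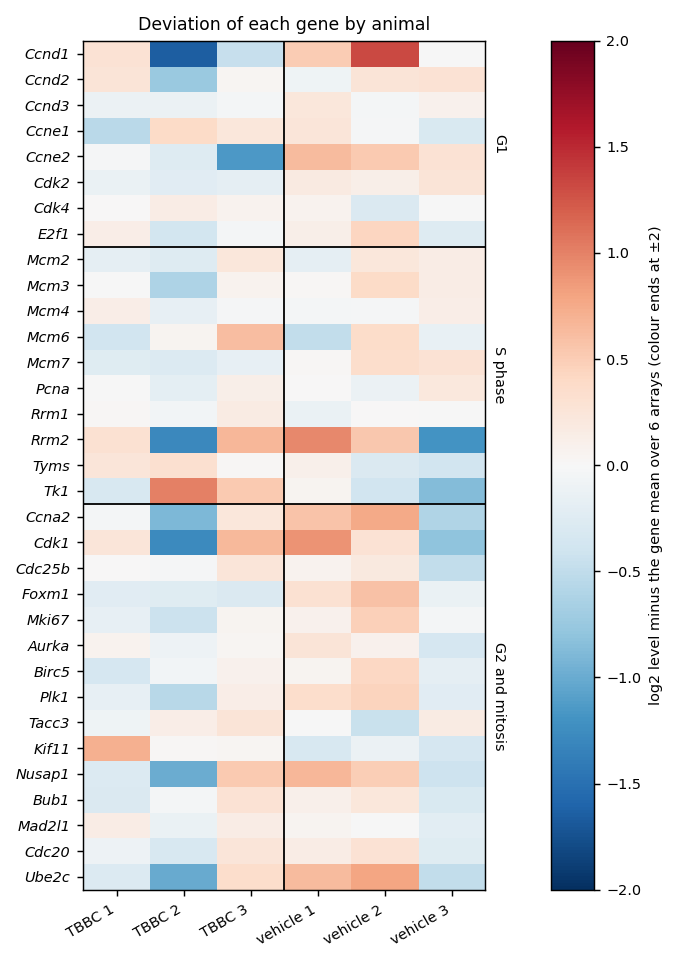
Log2 level of each tested gene in each animal minus its mean over the 6 arrays, by phase, TBBC animals left of the line and vehicle animals right of it. Red is above and blue below the gene's mean, with the colour ending at 2 either way; in G2 and mitosis, TBBC 2 and vehicle 3 are the bluest columns.

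The spread within groups was wide beside that of the array as a whole. The pooled SD within groups had a median of 0.28 over the 33 genes, against 0.20 over all features. For 25 of the 33 it was above the median of features with a similar signal, within 0.5 log2 units. Rrm2 had an SD of 1.09, Cdk1 of 0.94 and Ccnd1 of 0.84, each larger than in 98% of such features or more. The median differences moved with single animals. For G2 and mitosis the median was -0.003 without TBBC replicate 2 and -0.40 without vehicle replicate 3, and for S phase it was 0.08 without TBBC replicate 2. No cell cycle gene passed the test in any of these fits.

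The promoters of Cdk1 and Plk1 are shown because these genes belong to the group that varied together between animals. Both lie on the plus strand of GRCr8 (RefSeq), Cdk1 at chr20:19265043-19265342 and Plk1 at chr1:186147408-186147707. Capitals mark letters of the E2F forms, the CCAAT box and the CHR, the element to which the DREAM and MuvB complexes bind.
Cdk1: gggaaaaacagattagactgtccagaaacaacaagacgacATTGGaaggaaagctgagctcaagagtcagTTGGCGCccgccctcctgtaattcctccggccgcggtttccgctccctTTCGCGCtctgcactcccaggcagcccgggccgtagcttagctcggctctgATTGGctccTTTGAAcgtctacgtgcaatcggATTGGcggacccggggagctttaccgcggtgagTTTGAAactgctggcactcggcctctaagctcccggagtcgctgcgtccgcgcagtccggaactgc
Plk1: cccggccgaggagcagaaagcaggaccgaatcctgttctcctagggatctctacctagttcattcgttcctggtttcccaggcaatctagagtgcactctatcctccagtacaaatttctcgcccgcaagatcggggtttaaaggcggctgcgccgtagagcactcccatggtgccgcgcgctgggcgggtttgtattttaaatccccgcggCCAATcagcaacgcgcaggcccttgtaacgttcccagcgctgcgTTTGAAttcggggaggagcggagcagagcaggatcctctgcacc
The letters were searched on both strands, for E2F as TTCCCGC with its close forms TTGGCGC and also TTCGCGC besides TTGCCGC, for the CCAAT box as CCAAT and for the CHR as TTTGAA, and matches may overlap. Promoter entries were matched for 31 of the 43 genes. The CHR letters stood in 11 of 16 promoters of G2 and mitosis genes (68.8%), in 1 of 11 of S phase genes and in 0 of 4 of G1 genes, against 18.3% of all 33469 promoters of that length. The E2F letters stood in 8 of 11 promoters of S phase genes (72.7%), in 3 of 16 of G2 and mitosis genes and in 1 of 4 of G1 genes, against 9.52% of all promoters. The CCAAT letters stood in 12 of 16 promoters of G2 and mitosis genes, in 7 of 11 of S phase genes and in 2 of 4 of G1 genes, against 37.5% of all promoters. A match is a description of the sequence and not evidence of binding in these livers.

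Further genes of the same pathways gave few calls, in an array where 3.08% of all features were called. Of 11 tested genes of G1 entry outside the 43, such as further E2F factors, 0 passed. Cks1b, a subunit of the cyclin-dependent kinases, differed by -0.01 ± 0.20 (adjusted p = 0.988) and Ccnh, the cyclin of the Cdk-activating kinase, by 0.09 ± 0.13 (adjusted p = 0.725). Of 20 tested inhibitors of the cycle and members of the retinoblastoma and DREAM family, 0 passed (limma, lowest adjusted p = 0.062). At an unadjusted p of 0.05 in that fit, 40.0% of these would have passed, against 23.0% of all features. Their estimates were above 0 for 10 and below 0 for 10. Cdkn1a, the inhibitor p21, stood at 6.06, 5.81 and 5.82 in TBBC livers and at 6.30, 6.39 and 6.05 in vehicle livers, a difference of -0.35 ± 0.14 (adjusted p = 0.204). Btg1, an antiproliferative gene, stood at 5.75, 6.23 and 5.75 in TBBC and at 5.55, 5.24 and 5.24 in vehicle, a difference of 0.57 ± 0.18 (adjusted p = 0.132). Of 39 further replication genes 0 passed, with estimates from -1.39 to 0.50. Among them was Rfc1, a subunit of the clamp loader, at 0.23 ± 0.13 (adjusted p = 0.334).

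In the list of further mitosis genes 1 of 36 tested members (2.78%) rose and 0 fell, beside 1.68% and 1.40% of all features. Zwint, a protein that anchors the checkpoint machinery at the kinetochore, had log2 levels of 3.71, 4.11 and 4.24 in TBBC livers and of 2.81, 2.87 and 2.97 in vehicle livers. The groups were apart, with a difference of 1.14 ± 0.16, a 2.20-fold rise (adjusted p = 0.0261). The call was lost in 7 of 17 other settings, in which the adjusted p reached 0.0981. The median difference of the 36 genes was -0.12, with estimates from -1.23 to 1.14.

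Among 24 tested genes of liver growth signalling, 2 (8.33%) rose and 0 fell, beside 1.68% and 1.40% of all features. Gadd45b, a stress-inducible gene known in mouse liver as an early responder to CAR activators, had levels of 2.72, 3.49 and 3.79 in TBBC livers and of -0.05, 0.14 and 0.26 in vehicle livers. It rose 9.31-fold, by 3.22 ± 0.28 on the log2 scale (adjusted p = 0.00632), and passed in 17 of 17 other settings. Mdm2, the ubiquitin ligase of p53, stood at 1.09, 1.03 and 0.95 in TBBC and at 0.23, 0.50 and 0.27 in vehicle. It rose by 0.69 ± 0.12 (adjusted p = 0.0388), a call lost in 9 of 17 other settings. The list holds hepatocyte growth factor and epidermal growth factor with their receptors and early response genes such as Jun and Fos, and the median difference of its 24 tested genes was 0.15.

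Most CAR targets rose in the same livers. Of 8 tested, 7 rose and 0 fell, beside 1.68% and 1.40% of all features, with a median difference of 2.52. This list, like the others, was chosen with earlier results of these data known. Cyp2b1, the phenobarbital-inducible P450 of rat liver, had levels of 8.17, 8.84 and 8.78 in TBBC livers and of 4.23, 3.94 and 3.73 in vehicle livers, a rise of 4.63 ± 0.22 (adjusted p = 0.00116). Abcc3, an efflux transporter for conjugates, rose by 4.96 ± 0.21, and Cyp2b2, whose sequence is so close to that of Cyp2b1 that their probes may read both, rose by 4.18 ± 0.17. Cyp3a23-3a1, another P450, rose by 2.72 ± 0.26, Ugt2b1, a glucuronosyltransferase, by 2.31 ± 0.15 and Por, the reductase that serves P450 enzymes, by 1.81 ± 0.27. The exception was Alas1, the entry enzyme of haem synthesis, with a difference of 1.49 ± 0.33 (adjusted p = 0.0690), named here after its value was seen. The call of Por was lost in 7 of 17 other settings. The 33 cell cycle genes had estimates between -1.21 and 0.80 in the same animals. The difference between the lists was not tested.

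**Figure D4:**
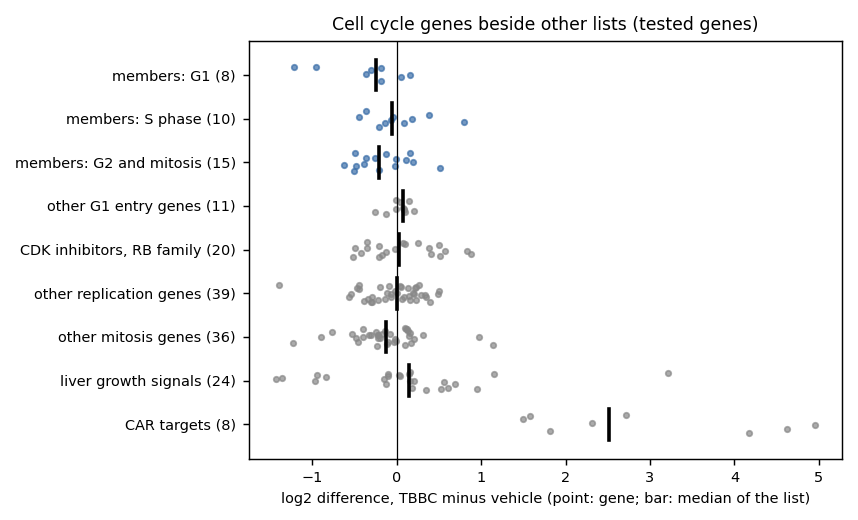
Log2 difference, TBBC minus vehicle, of each tested gene in the 3 phases of the cell cycle list and in 6 other lists; the number tested is in brackets and the bar is the list's median. The 8 CAR targets lie from 1.49 to 4.96, while the phase medians lie at -0.25, -0.05 and -0.20.

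Genes of division can also come from blood cells and from other cells of the liver, so markers of those cells are given beside the values above. The hepatocyte markers were all measured, 9 of 9 tested with 0 called, beside 3.08% of all features. Their summed signal was 3887, 3932 and 3825 times the array's 75th percentile in TBBC livers and 4512, 4849 and 4181 times in vehicle livers, without overlap. Over the list 4 estimates were above 0 and 5 below 0, with a median of -0.03. The groups were apart for 3 genes lower in TBBC (33.3%, beside 18.8% of all features) and for 0 higher (beside 12.3%). They were Apoa1 (-0.9996, limma adjusted p = 0.05004), Serpina1 (-0.40, adjusted p = 0.101) and Alb (-0.30, adjusted p = 0.173). Apoa1 and Serpina1 are named after their values were seen. The sum rests mostly on bright genes such as Alb and Ttr, of which Ttr differed by only -0.03. The erythroid markers, 7 of 9 tested with 0 called, summed to 692, 573 and 730 in TBBC and to 715, 777 and 448 in vehicle. TBBC replicate 2 and vehicle replicate 3, the lowest animals for G2 and mitosis genes, were also the lowest in this sum, in which Hba-a1 and Hbb, the globins, were the brightest. The mean log2 level of the 7 genes was lowest in TBBC replicate 1 (1.08, against 1.12 in replicate 2) and in vehicle replicate 3 (0.91). Slc4a1 and Epb42 were lowest in other animals. Klf1 was lowest in TBBC replicate 2, but among vehicle animals it was highest in replicate 3 (-3.78, against -4.31 and -4.36). Lymphocyte markers, 9 of 12 tested with 0 called, summed to 3.36, 2.72 and 4.32 in TBBC and to 4.06, 4.60 and 4.63 in vehicle, and 8 of the 9 estimates were below 0. Cd3e, Cd79a and Ms4a1 of that list were not tested.

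In the other lists, calls made up 22.2% of the 9 tested stellate cell and fibroblast markers and 14.3% of the 7 tested biliary markers. Over all features the share was 3.08%. The Kupffer and myeloid markers (12 of 13 tested, 0 called) summed to 113 to 242 in TBBC livers and to 109.3 to 219 in vehicle livers. The endothelial markers (6 of 10 tested, 0 called) summed to 33.1 to 38.1 in TBBC and to 26.2 to 46.4 in vehicle. Of 9 tested stellate cell and fibroblast markers, which summed to 24.9 to 32.6 in TBBC and to 24.8 to 35.3 in vehicle, Rgs5 rose by 0.95 (adjusted p = 0.0213) and Pdgfrb fell by 0.73 (adjusted p = 0.0461). Of 7 tested biliary markers, which summed to 3.12 to 4.56 in TBBC and to 1.48 to 1.78 in vehicle, Epcam rose by 1.83 (adjusted p = 0.0147). Without Epcam the other 6 summed to 0.766 to 0.923 in TBBC and to 0.639 to 1.11 in vehicle, which overlap. These 3 genes are named after their values were seen, and the calls of Rgs5, Pdgfrb and Epcam were lost in 8, 11 and 2 of 17 other settings. The part of any of these cells in the levels of the cell cycle genes was not tested.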

How the data were processed

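Spot intensity, linear and background-subtracted, was read from the deposited scanner files of 1-colour Agilent arrays. The software was Agilent Feature Extraction, version 10.7.1.1 per the file headers and 10.7 per the submitters' processing notes. The deposited value table, also intensity, equals that signal times 1 constant per array for the bright probes on which this was checked. Those were probes with a table value above 1, which is near its 75th percentile, and the central 95% of them lay within 0.00574%. The table was used only as an alternative. Its column medians were 0.0977, 0.0972 and 0.0974 for TBBC and 0.101, 0.108 and 0.103 for vehicle.

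Each processed intensity was divided by the 75th percentile of its array and taken to log2. That percentile was 616.1, 626.5 and 638.2 in TBBC and 577.9, 465.2 and 598.1 in vehicle. Controls and 25 probes with outlier flags were left out, and a probe was retained if it cleared background on every array of TBBC, of vehicle or of both. Probes were named by unversioned RefSeq accession in a gene table of GRCr8 (28206 of 61537). The arrays were designed on rn4, per the file headers, so no probe coordinates are given. A gene was read from its retained probe with the highest mean, and unnamed probes stood alone. TBBC was set against vehicle in limma 3.58.1 under R 4.3.3 (lmFit, then eBayes, two-sided, Benjamini-Hochberg over 29326 features, threshold 0.05), tested on simulated data. The number of arrays limits the precision.

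The members and lists were chosen with earlier results of these data known. All 43 members are described. Of each other list the text names members past the threshold, at most 6 by size, or where none passed the 2 with the highest mean signal; 1 gene that this rule takes is not reported here. Alternatives were quantile, median and spike-in scaling, normexp on median signals (offset 50), other filters and probe rules, the value table, eBayes with trend, a replicate block and leaving out each array.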

Additional observations from a re-analysis of the deposited data

How the results depend on the processing

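No cell cycle gene passed the threshold in any of the 17 other settings. The lowest adjusted p was 0.0634, for Mcm7. Of 559 values of single members in these settings, 44, in 15 members, had the opposite sign, 10 of them with spike-in scaling. The median difference of the G1 genes was -0.025 with spike-in scaling, where the median of all features was 0.16; relative to that median it was -0.18 there and in the reported fit. The number of features past the threshold depended on the processing, with 902 as reported, 1589 with normexp, 194 without the filter on dim probes, 211 with the replicate block and 104 (without TBBC replicate 2) to 365 (without TBBC replicate 1) when single arrays were left out. With spike-in scaling 574 features were higher and 130 lower, against 492 and 410 as reported. Leaving out any other array (TBBC replicate 3, vehicle replicates 1, 2 or 3) gave 239, 137, 214 and 273. Deviations of samples with the same replicate number had correlations of 0.00, -0.02 and 0.14, which show no sign of pairing but cannot exclude it. The block changed no call of a cell cycle gene, but it also gave fewer calls over all features, so this says little. The counts of lowest animals under other scalings were added after seeing the data. Genes near background and 3 animals per group limit what could be detected.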
